A study of Homo sapiens with 6 samples.

Results

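This account covers 45 genes of DNA damage signalling and strand break repair, chosen by name, among 23710 gene symbols counted in K562 cells. They fall into 9 genes of damage signalling, 16 of homologous recombination, 10 of the Fanconi anaemia pathway, 5 of end joining and 3 of mismatch repair, and the 2 genes of the ERCC1-ERCC4 nuclease. K562 is an established human leukaemia line (chronic myelogenous leukemia) that expresses red cell genes. The treated group received 20 µM 3FM-dC together with 2 mM THU for 24 h, and the control group received the same amount of DMSO, in which both compounds had been dissolved, for 24 h. Each group held 3 libraries at passages 13 to 16. No library had either compound alone, so what 3FM-dC and what THU did cannot be told apart, and the study asked how 3FM-dC alters gene expression. The labels do not say that the libraries came from separate cultures, and if they did not, the p-values reflect technical spread alone.

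A broken or stalled chromosome is sensed by large kinases. ATM responds to strand breaks, and ATR, held by its partner ATRIP, responds to exposed unpaired DNA at stalled forks, and they pass the signal on to CHEK2 and CHEK1. Breaks are then rejoined directly by end joining, which starts with the Ku proteins XRCC5 and XRCC6, or are copied from the sister chromatid by homologous recombination, in which BRCA1, BRCA2, RAD51C and RAD51D act. The Fanconi proteins unhook crosslinks between DNA strands, and mismatch repair corrects bases paired wrongly in replication.

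The sequences shown here are promoter windows of members that the results turn on, from 250 bases before to 50 bases after an annotated start, as given by RefSeq on GRCh38.p14 and written on the gene's own strand. BRCA1 is shown because it changed most of the 45 genes and because its neighbours on the other strand moved with it, and it has a window at each of its annotated starts. PMS2 and MRE11A (MRE11 in RefSeq) are shown because a neighbour that starts close by on the other strand moved the same way. RAD51C and EXO1 are shown because a window of each, like that of PMS2, holds a cyclic AMP response element. LIG4, which fell, also has windows with this element and is not shown, so the printed windows do not tie it to rising genes. Capitals mark CCAAT boxes (CCAAT, or ATTGG on the other strand) and cyclic AMP response elements (TGACGTCA), with no overlap between these marks.
BRCA1, chr17:43125315-43125614, minus strand: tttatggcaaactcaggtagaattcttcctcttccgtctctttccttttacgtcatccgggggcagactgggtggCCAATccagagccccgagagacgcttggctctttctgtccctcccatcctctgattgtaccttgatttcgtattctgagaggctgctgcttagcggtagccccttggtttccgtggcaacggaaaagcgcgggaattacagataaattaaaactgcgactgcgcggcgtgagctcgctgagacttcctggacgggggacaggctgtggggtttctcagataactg
BRCA1, chr17:43170278-43170577, minus strand: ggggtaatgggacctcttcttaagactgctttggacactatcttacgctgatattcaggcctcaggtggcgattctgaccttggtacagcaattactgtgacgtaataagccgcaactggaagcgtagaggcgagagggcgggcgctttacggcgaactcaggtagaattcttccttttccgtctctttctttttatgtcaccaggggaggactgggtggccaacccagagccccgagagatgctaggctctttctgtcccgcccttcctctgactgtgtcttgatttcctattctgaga
PMS2, chr7:6009057-6009356, minus strand: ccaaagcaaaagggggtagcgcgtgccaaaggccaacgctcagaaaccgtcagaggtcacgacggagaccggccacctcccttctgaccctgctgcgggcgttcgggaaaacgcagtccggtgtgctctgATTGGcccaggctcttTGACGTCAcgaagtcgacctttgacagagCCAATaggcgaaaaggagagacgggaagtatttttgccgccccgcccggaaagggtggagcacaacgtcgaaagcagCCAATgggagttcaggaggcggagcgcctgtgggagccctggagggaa
MRE11A, chr11:94493795-94494094, minus strand: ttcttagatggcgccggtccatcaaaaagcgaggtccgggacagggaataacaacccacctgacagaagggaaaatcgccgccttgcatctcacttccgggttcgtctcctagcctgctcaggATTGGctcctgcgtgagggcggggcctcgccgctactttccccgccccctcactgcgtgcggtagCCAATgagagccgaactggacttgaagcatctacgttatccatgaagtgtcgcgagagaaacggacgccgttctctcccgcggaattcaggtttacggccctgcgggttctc
RAD51C, chr17:58692323-58692622, plus strand: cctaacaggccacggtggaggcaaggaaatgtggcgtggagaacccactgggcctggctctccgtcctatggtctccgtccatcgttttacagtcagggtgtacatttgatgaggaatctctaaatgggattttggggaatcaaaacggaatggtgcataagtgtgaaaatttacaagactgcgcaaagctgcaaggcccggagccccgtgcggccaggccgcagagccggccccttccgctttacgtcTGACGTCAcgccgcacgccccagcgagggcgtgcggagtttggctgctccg
EXO1, chr1:241847954-241848253, plus strand: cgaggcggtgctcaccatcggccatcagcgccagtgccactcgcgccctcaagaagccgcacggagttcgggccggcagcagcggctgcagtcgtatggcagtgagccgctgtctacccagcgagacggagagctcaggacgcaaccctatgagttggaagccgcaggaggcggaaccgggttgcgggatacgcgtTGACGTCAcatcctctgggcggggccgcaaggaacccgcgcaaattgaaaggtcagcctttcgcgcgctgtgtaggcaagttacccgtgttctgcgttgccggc

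The counts in genes ranged from 18408826 to 22750278 per library. Levels are given as CPM, the count of a gene scaled to the depth of its library with TMM factors, and a gene counts as changed at an adjusted p under 0.05 in edgeR's quasi-likelihood test across all tested genes. All 10 erythroid genes listed as K562 markers passed the filter on low counts, and their summed level was 7461 to 7640.4 CPM in DMSO and 3822 to 4000.1 CPM in treated libraries, with 9 lower and 1 higher. The lymphoid markers MS4A1 and CD2 and the epithelial keratins KRT5 and KRT14 had no count in any library. Of the marker lists for other cell types, the epithelial genes EPCAM and KRT19 were well detected and fell, and the summed level of the 5 epithelial markers was 212 to 216 CPM in DMSO and 118 to 125 CPM in treated libraries. The 6 lymphoid markers summed to 7.87 to 8.98 CPM in DMSO and 9.57 to 11.3 CPM in treated libraries, and the 6 fibroblast and endothelial markers to 10.3 to 13.8 and 7.28 to 11.5 CPM. Their part in the results was not tested. In a bulk library, fewer cells with a transcript and less of it per cell cannot be told apart.

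All 45 genes were expressed and passed the filter. After treatment 15 of them were higher and 18 lower, and 12 did not pass the test, so that 33 changed (73.3%) against 66.4% of the 12339 genes tested, of which 33.8% were higher and 32.7% lower. The treated libraries lay wholly above the DMSO libraries in 15 members and wholly below them in 18, where all tested genes gave 35.5% above and 34.5% below. The changes went both ways and were small. With TMM scaling and the main filter, BRCA1 was the only member called with a change of at least 1.5-fold, a size reached by 25.4% of all tested genes (16.9% higher and 8.52% lower). PMS2, at 1.498-fold, was just under it. When only genes with at least 5 CPM in 3 libraries were tested, BRCA1 and PMS2 passed it, 2 of 45 against 20.3% of all genes. With total counts scaling BRCA1, PMS2 and RAD51D passed it, 3 of 45 against 26% of all genes. PMS2 also passed it without DMSO replicate 3 or without treated replicate 3, and RAD51D without treated replicate 1. The log2 fold changes of the members ran from -0.49 (ATRIP) to 0.71 (BRCA1) with a median of -0.10, and the median of all tested genes was 0.01. With libraries scaled by total counts instead of TMM, 18 members were higher and 13 lower and their median was 0.00, while that of all genes moved to 0.10. All tested genes then split into 5048 higher and 3189 lower, against 4167 and 4031 with TMM.

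**Figure D1:**
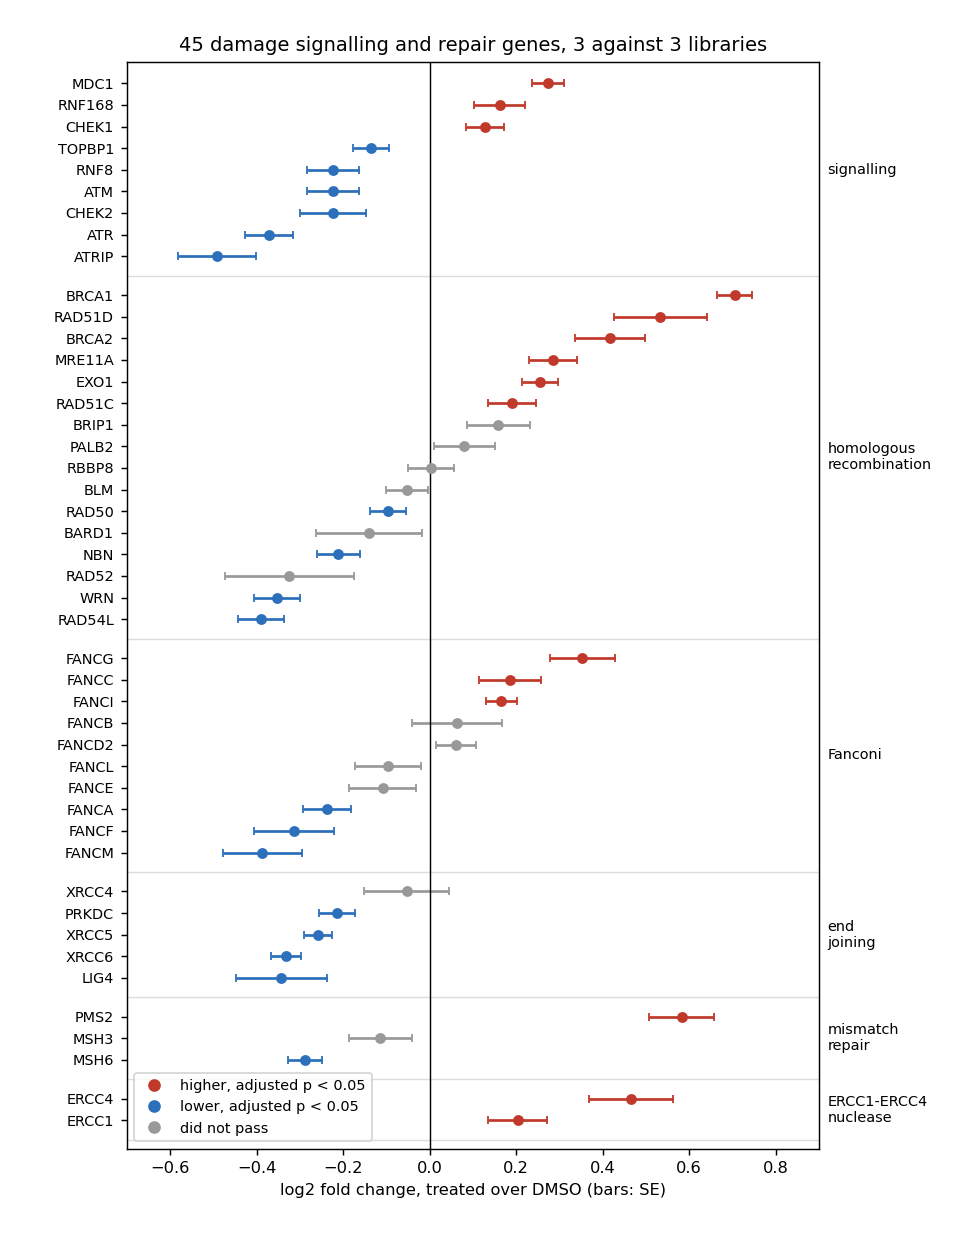
Log2 fold change of each of the 45 genes, treated over DMSO, with its SE, grouped by role and coloured by the call of edgeR's test. The end joining genes all lie below 0 and the ERCC1-ERCC4 nuclease genes above it, while the other roles hold genes on both sides, from -0.49 for ATRIP to 0.71 for BRCA1.

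All 9 signalling genes changed, 3 of them higher and 6 lower. Of all tested genes 66.4% changed, 33.8% higher and 32.7% lower. At a minimum fold change of 1.2 only the calls of ATR and ATRIP held. The ATR kinase and its partner fell together. ATR had 69.8, 70.8 and 65.8 CPM in the DMSO libraries and 52.2, 53.2 and 53.9 CPM in the treated ones (log2 fold change -0.37, SE 0.06, edgeR adjusted p = 1.15e-06). ATRIP had 21.8, 26.3 and 23.7 CPM in DMSO and 17.1, 16.5 and 17.5 CPM after treatment (log2 fold change -0.49, SE 0.09, edgeR adjusted p = 2.81e-05). In both genes every treated library lay below every DMSO library. The ATRIP locus shares 1515 exonic bases with TREX1 on the same strand, and how reads were split between them is not given. TREX1 had 1.88 CPM on average in DMSO and 2.38 in treated libraries.

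MDC1, the scaffold that binds marked chromatin around a break, had the smallest p among signalling genes. It stood at 241, 240.1 and 242 CPM in DMSO and at 282, 299 and 293 CPM in treated libraries (log2 fold change 0.27, SE 0.04, edgeR adjusted p = 2.08e-07), with no overlap. The ubiquitin ligases that follow it went apart, with RNF8 lower (-0.22, from 52.5 ± 1.29 to 45.03 ± 1.45 CPM, SD, n = 3 per group) and RNF168 higher (0.16, from 60.7 ± 4.24 to 67.9 ± 2.99 CPM). The RNF168 libraries overlapped between the groups, and its call was lost with DESeq2, at a minimum fold change of 1.2, without DMSO replicate 2 and without treated replicate 3. ATM fell by 0.22 on the log2 scale, from 53.3 ± 1.85 to 45.6 ± 1.501 CPM, and TOPBP1, an activator of ATR, by 0.13. The calls of ATM, TOPBP1 and RNF8 were lost with total counts scaling. The effector kinases also went apart. CHEK1 was slightly higher (log2 fold change 0.13, SE 0.04, edgeR adjusted p = 0.01097), a call lost without treated replicate 3. CHEK2 fell by 0.22 on the log2 scale, with 45.2, 39.7 and 42.2 CPM in DMSO and 41.4, 33.2 and 34.4 CPM in treated libraries, so that treated replicate 1 lay inside the DMSO range. The CHEK2 call was lost without DMSO replicate 1, without treated replicate 2, without treated replicate 3 and with total counts scaling.

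Among the 16 genes of homologous recombination 6 rose, 4 fell and 6 did not pass. All tested genes gave 33.8% higher and 32.7% lower. BRCA1, which steers breaks into recombination, had 142.2, 144 and 142.1 CPM in the DMSO libraries and 224, 240.4 and 235 CPM in the treated ones. The DMSO libraries were within 3 CPM of each other and every treated library was far above them (1.63-fold, log2 fold change 0.71, SE 0.04, edgeR adjusted p = 5.68e-15). BRCA2, which acts on resected ends, rose from 29.2, 34.2 and 29.7 to 36.9, 40.9 and 46.3 CPM (log2 fold change 0.42, SE 0.08, edgeR adjusted p = 4.58e-05). RAD51D, a recombination factor, rose from 14.5, 13.5 and 13.1 to 17.7, 23.2 and 18.5 CPM (log2 fold change 0.53, SE 0.11, edgeR adjusted p = 8.47e-05). RAD51C, which works in complexes with RAD51D, rose by 0.19, and EXO1, a nuclease that resects broken ends and also serves mismatch repair, by 0.25 from 167 ± 1.65 to 199 ± 8.44 CPM. For these 5 genes the groups did not overlap. RAD51D shares 905 exonic bases with the read-through gene RAD51L3-RFFL on the same strand, which had no count in any library.

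Other recombination genes went down. RAD54L, a motor that helps strand exchange, fell from 101, 94.8 and 103 to 81.04, 73.2 and 73.8 CPM (log2 fold change -0.39, SE 0.05, edgeR adjusted p = 2.06e-07). WRN, the helicase lost in Werner syndrome, fell from 103, 104 and 104 to 88.3, 80.3 and 75.2 CPM (log2 fold change -0.35, SE 0.05, edgeR adjusted p = 1.31e-06), and in both genes all treated libraries lay below all DMSO libraries. RAD54L shares 806 exonic bases with LRRC41 on the opposite strand, and LRRC41 was at -0.03 (edgeR adjusted p = 0.646). The genes of the complex that first binds a broken end did not move alike. MRE11A, its nuclease, rose from 57.2 ± 1.52 to 69.7 ± 2.03 CPM (log2 fold change 0.29, SE 0.05, edgeR adjusted p = 4.28e-05), while NBN, which links the complex to ATM, fell from 134 ± 8.18 to 115 ± 5.09 CPM (-0.21). RAD50, its ATPase, was barely lower (-0.10, edgeR adjusted p = 0.0452), a call lost with a replicate block and under 7 other alternatives, among them leaving out DMSO replicate 1, 2 or 3 or treated replicate 1.

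No change was called for the partners that BRCA1 and BRCA2 need. BARD1, the other subunit of the BRCA1 ubiquitin ligase, had 13.3, 10.98 and 11.2 CPM in DMSO and 10.3, 10.1 and 11.8 CPM in treated libraries (log2 fold change -0.14, SE 0.12, edgeR adjusted p = 0.318). PALB2, which bridges BRCA1 and BRCA2, had 32.2 ± 0.468 and 34.02 ± 1.44 CPM (edgeR adjusted p = 0.316). The helicases BLM and BRIP1 were at -0.05 and 0.16 on the log2 scale, RBBP8, a cofactor of resection, at 0.00, and RAD52, the member with the fewest counts, at -0.32. BRIP1 passed with total counts scaling and with the 5 CPM filter, PALB2 with total counts scaling, and RAD52 without DMSO replicate 2.

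**Figure D2:**
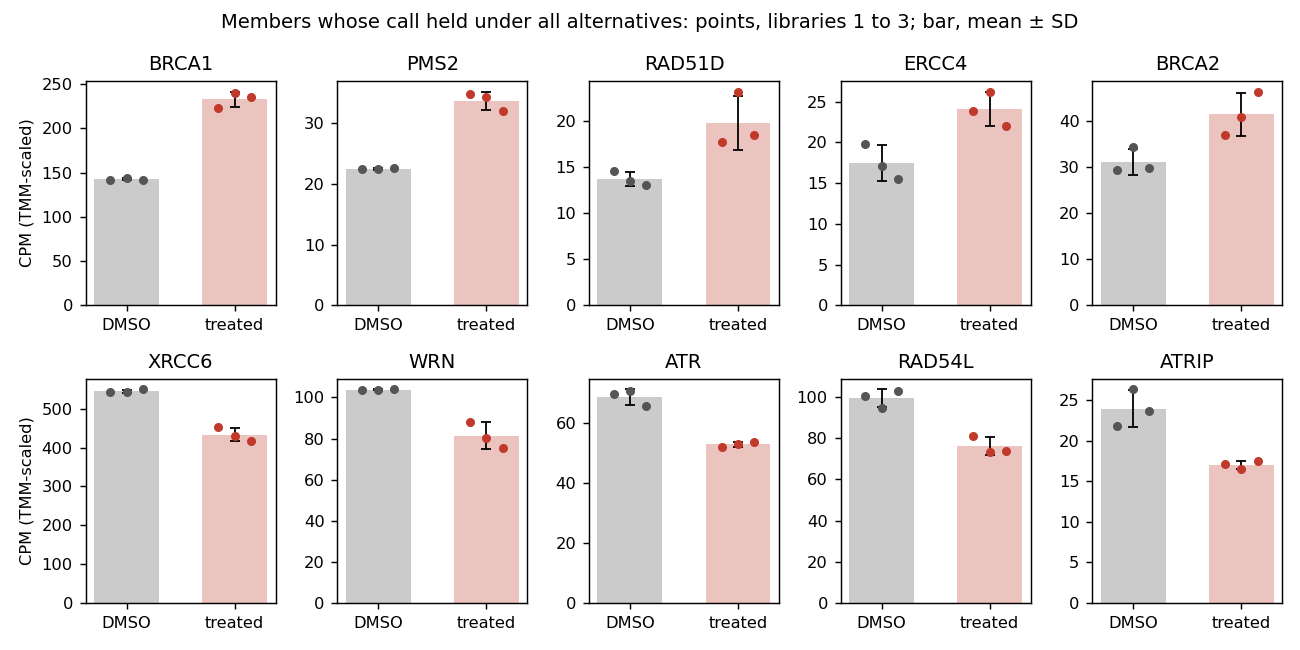
CPM of the 10 genes whose calls held under all 13 alternatives tried, with a point for each library and bars for the mean ± SD of 3 libraries. In every panel the treated points lie wholly above (BRCA1, PMS2, RAD51D, ERCC4 and BRCA2) or wholly below (XRCC6, WRN, ATR, RAD54L and ATRIP) the DMSO points.

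Of the 10 Fanconi genes 3 rose and 3 fell, where all tested genes gave 33.8% higher and 32.7% lower. FANCG, a member of the core complex that marks FANCD2 and FANCI with ubiquitin, had 28.6, 25.7 and 27.99 CPM in DMSO and 32.3, 36.1 and 36.7 CPM in treated libraries (log2 fold change 0.35, SE 0.08, edgeR adjusted p = 0.0001701). FANCI itself rose from 229.7, 227 and 230.1 to 262, 257 and 253 CPM (log2 fold change 0.17, SE 0.04, edgeR adjusted p = 0.000253), and FANCC, also of the core complex, by 0.19. All treated libraries were above all DMSO libraries in these genes. FANCI shares 458 exonic bases with POLG on the opposite strand, which fell by 0.18. The FANCC call was lost with DESeq2, with no filter on low counts, without DMSO replicate 1 or 3 and without treated replicate 2.

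FANCA, another core protein, fell from 76.5, 69.9 and 73.4 to 64.04, 58.4 and 63.95 CPM (log2 fold change -0.24, SE 0.06, edgeR adjusted p = 0.000528), FANCF, an adaptor of the core complex, by 0.31, and FANCM, a translocase that brings the complex to DNA, by 0.39 from 22.3 ± 1.75 to 17.1 ± 0.921 CPM. FANCA shares 2302 exonic bases with ZNF276 on the opposite strand, and ZNF276 was at 0.15 (edgeR adjusted p = 0.0939). The partner of FANCI did not pass: FANCD2 had 119 ± 2.11 CPM in DMSO and 124 ± 6.498 CPM after treatment (edgeR adjusted p = 0.255), and it passed only with total counts scaling among the alternatives. FANCB, FANCE and FANCL, the last of them the ligase of the complex, did not pass either, with log2 fold changes of 0.06, -0.11 and -0.10.

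In end joining no gene rose and 4 of 5 fell, against 32.7% of all tested genes called lower. XRCC6, the smaller Ku protein, had 544, 543 and 549.8 CPM in DMSO and 452, 431 and 417 CPM in treated libraries (log2 fold change -0.33, SE 0.03, edgeR adjusted p = 1.97e-09). Its partner XRCC5 had 602, 597 and 598 CPM in DMSO and 503, 496 and 503 CPM after treatment (log2 fold change -0.26, SE 0.03, edgeR adjusted p = 4.45e-08). PRKDC, the catalytic kinase that binds Ku on a broken end, stood at 1062, 1102 and 1007 CPM in DMSO and at 950.2, 829 and 955 CPM in treated libraries (log2 fold change -0.21, SE 0.04, edgeR adjusted p = 4.78e-05). The groups were apart in all of these genes, and the falls were of 1.16-fold to 1.26-fold. LIG4, the ligase of the pathway, fell by 0.34 from 19.4 ± 2.97 to 15.2 ± 0.261 CPM, a call lost without DMSO replicate 2. XRCC4, the scaffold of LIG4, had 20.4 ± 0.946 and 19.7 ± 2.72 CPM and did not pass (edgeR adjusted p = 0.649).

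The mismatch repair genes differed. PMS2, a subunit with nuclease activity, rose from 22.4, 22.4 and 22.6 to 34.8, 34.3 and 32.00 CPM (log2 fold change 0.58, SE 0.08, edgeR adjusted p = 9.79e-08), and the DMSO libraries were almost equal. PMS2 has several near-identical copies in the genome that can share its reads, so its value is uncertain. Of those copies PMS2P1 (0.28), PMS2CL (0.45) and PMS2P5 (0.64) rose on the log2 scale, while PMS2P3 (0.09) and PMS2P4 (0.42) did not pass. MSH6, which recognises base mismatches, fell from 266, 274 and 263 to 222, 210.0 and 226 CPM (log2 fold change -0.29, SE 0.04, edgeR adjusted p = 2.18e-07). MSH6 shares 1785 exonic bases with FBXO11 on the opposite strand, and FBXO11 was at 0.05 (edgeR adjusted p = 0.379). MSH3, which recognises larger loops, had 48.4, 43.9 and 39.4 CPM in DMSO and 40.96, 37.8 and 42.6 CPM in treated libraries (edgeR adjusted p = 0.1698), and its groups overlapped. It passed, as lower, without DMSO replicate 3.

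The nuclease of ERCC1 and ERCC4, which cuts DNA beside crosslinks and bulky lesions, rose in both subunits. ERCC4, the catalytic one, had 19.9, 17.1 and 15.5 CPM in DMSO and 23.9, 26.2 and 22.1 CPM in treated libraries (log2 fold change 0.47, SE 0.10, edgeR adjusted p = 0.000133). ERCC1 rose from 40.04, 47.6 and 43.3 to 49.5, 53.5 and 47.7 CPM (log2 fold change 0.20, SE 0.07, edgeR adjusted p = 0.00988), a call lost without DMSO replicate 1. The treated libraries of ERCC1 began just above the highest DMSO library. ERCC1 shares 1593 exonic bases with CD3EAP on the opposite strand, and CD3EAP fell by 0.97 on the log2 scale, the other way.

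The count ratio of partner genes within a library does not depend on how libraries are scaled. Of 12 partner ratios compared, 8 did not overlap between the groups. Taken singly, 35.5% of all tested genes had treated libraries wholly above DMSO and 34.5% wholly below. The share over other pairs of genes was not computed, so the 8 do not set these pairs apart. With 3 libraries against 3 an exact two-sided permutation test cannot give a p below 0.1. Groups that do not overlap always give that p, so the 0.1 of these 8 (0.15 after adjustment over the 12) adds nothing. The ratio of BRCA1 to BARD1 counts was 10.7, 13.2 and 12.7 in the DMSO libraries and 21.7, 23.8 and 20.00 in the treated ones, 1.80-fold higher on average. The ratio of MRE11A to RAD50 went from 0.294, 0.316 and 0.315 to 0.437, 0.391 and 0.379, and that of CHEK1 to CHEK2 from 2.73, 3.14 and 2.897 to 3.15, 4.11 and 4.01. BRCA2 to PALB2 was 0.893, 1.08 and 0.928 in DMSO and 1.14, 1.196 and 1.31 after treatment. Treated libraries were above DMSO libraries in each of these ratios.

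Other ratios differed less. The Ku ratio, XRCC5 to XRCC6, was 1.11, 1.101 and 1.09 in DMSO and 1.11, 1.15 and 1.21 in treated libraries, a mean difference of 0.07 on the log2 scale, although the groups did not overlap. FANCD2 to FANCI differed by -0.11, ATM to ATR by 0.15 and XRCC4 to LIG4 by 0.27, also without overlap. The groups overlapped for ATR to ATRIP (0.12, exact p = 0.3), NBN to RAD50 (-0.11, exact p = 0.3), MSH3 to MSH6 (0.17, exact p = 0.2) and ERCC1 to ERCC4 (-0.26, exact p = 0.4). In the last of these, DMSO replicate 1 alone had a ratio of 2.02 beside 2.77 and 2.801 in the others of its group.

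**Figure D3:**
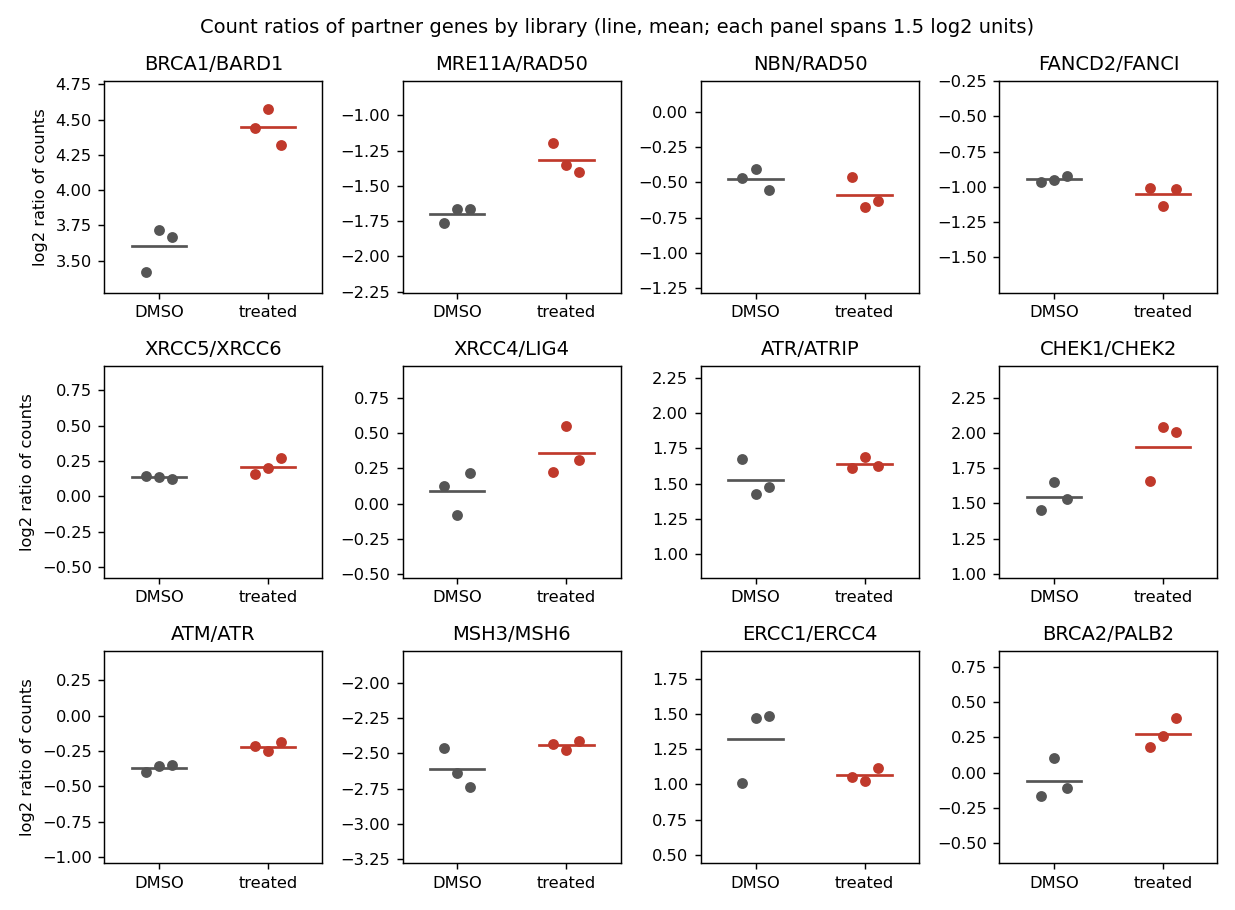
Log2 ratio of the counts of 2 partner genes in each library, DMSO and treated, with the group mean as a line and the same span of 1.5 log2 units in each panel. BRCA1/BARD1 shows the widest gap, 0.85 log2 units between the group means, and XRCC5/XRCC6 a gap of 0.07.

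Levels can be compared between genes only per length, here as CPM per kilobase of exon (GENCODE 29, GRCh38, while the submitters' notes name hg19). On that scale the Ku genes and their kinase led in DMSO cells, with XRCC6 at 166 ± 1.15, XRCC5 at 109.7 ± 0.5402 and PRKDC at 68.6 ± 3.104 (SD, n = 3), and they kept the 3 highest levels after treatment. EXO1 followed at 40.3 ± 0.399, and then RAD54L, MDC1 and FANCI at 30.98 ± 1.32, 29.9 ± 0.155 and 29.5 ± 0.187, levels that lay within 2 CPM per kilobase of each other. The lowest were RAD52 at 1.96 ± 0.277, BARD1 at 1.95 ± 0.212 and RAD51D at 1.21 ± 0.0664. The length used is that of all annotated exons of a gene merged, which can exceed that of the transcripts present, so these ranks depend on it. It is 11.3 kilobases for RAD51D. Before division by length RAD51D had 13.7 CPM on average in DMSO, above BARD1 (11.8) and RAD52 (8.22). BRCA1 went from rank 14 of 45 in DMSO cells, at 15.6 ± 0.142, to rank 7 in treated cells, at 25.4 ± 0.935 CPM per kilobase. BARD1, its partner, was at rank 44 and then 43.

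Many repair genes start head to head with a gene on the other strand. By the annotation, 20 members had such a neighbour with a start within 1000 bases, 21 neighbours in all, of which 17 passed the filter on low counts. In 7 of these 17 cases neighbour and member were called in the same direction, in 1 case in opposite directions, and in 9 cases at least 1 of the genes was not called. Of the 17 neighbours 13 were called in either direction, where 66.4% of all tested genes were. The widest change was beside BRCA1. NBR2, a noncoding RNA gene that starts 127 bases from a BRCA1 start, had 5.601, 4.71 and 5.58 CPM in the DMSO libraries and 21.1, 26.9 and 20.7 CPM in the treated ones (4.31-fold, log2 fold change 2.11, SE 0.13, edgeR adjusted p = 1.60e-14). NBR1, an autophagy receptor gene that starts 236 bases from the outer BRCA1 start, went from 99.8, 104 and 98.4 to 149.7, 183 and 164 CPM (log2 fold change 0.72, SE 0.05, edgeR adjusted p = 1.98e-12). All treated libraries were above all DMSO libraries in both neighbours. The BRCA1 windows printed above, one beside each neighbour, align over 155 columns with 88.4% identical bases (137 matches, 17 mismatches and 1 gap column), and whether reads of NBR1 and NBR2 were shared was not tested. The windows lie far apart, at chr17:43170278-43170577 beside NBR1 and chr17:43125315-43125614 beside NBR2. Counts per gene do not show which BRCA1 start was used, so whether NBR1 and BRCA1 share an active promoter was not tested. NBR1 is among the 7 neighbours called in the member's direction only through that outer annotated start, and whether BRCA1 is read from it in these cells is not known.

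AIMP2, a scaffold protein of tRNA synthetases, starts 120 bases from PMS2 and rose with it, from 32.6, 30.5 and 32.8 to 42.6, 42.5 and 43.3 CPM (log2 fold change 0.42, SE 0.07, edgeR adjusted p = 2.74e-06). ANKRD49 starts 71 bases from MRE11A and rose by 0.27 (edgeR adjusted p = 0.01302), MRE11A by 0.29, although the ANKRD49 libraries overlapped between the groups. These genes share 225 exonic bases on opposite strands, and whether they share reads was not tested. MCM4, a subunit of the replicative helicase, starts 2 bases from PRKDC and fell with it, by 0.39 (601, 605 and 587 CPM in DMSO and 467, 443 and 454 CPM in treated libraries). ABHD13 fell with LIG4 (-0.33 and -0.34) and FKBP3 with FANCM (-0.12 and -0.39). HSCB rose beside CHEK2, which fell (0.33 and -0.22), and they share 301 exonic bases on opposite strands. NPAT beside ATM was at -0.02 (edgeR adjusted p = 0.771). ERC1 (0.35), MOSPD2 (0.50), CIDECP (0.39) and TMEM167A (-0.32) were called beside RAD52 (-0.32), FANCB (0.06), FANCD2 (0.06) and XRCC4 (-0.05), which were not. FNDC8 (-0.05) and DESI1 (-0.10) were not called beside RAD51D (0.53) and XRCC6 (-0.33), which were. Neither DCTN5 nor PALB2 was called (0.08 for each). Whether neighbours moved with members more than other genes do was not tested.

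**Figure D4:**
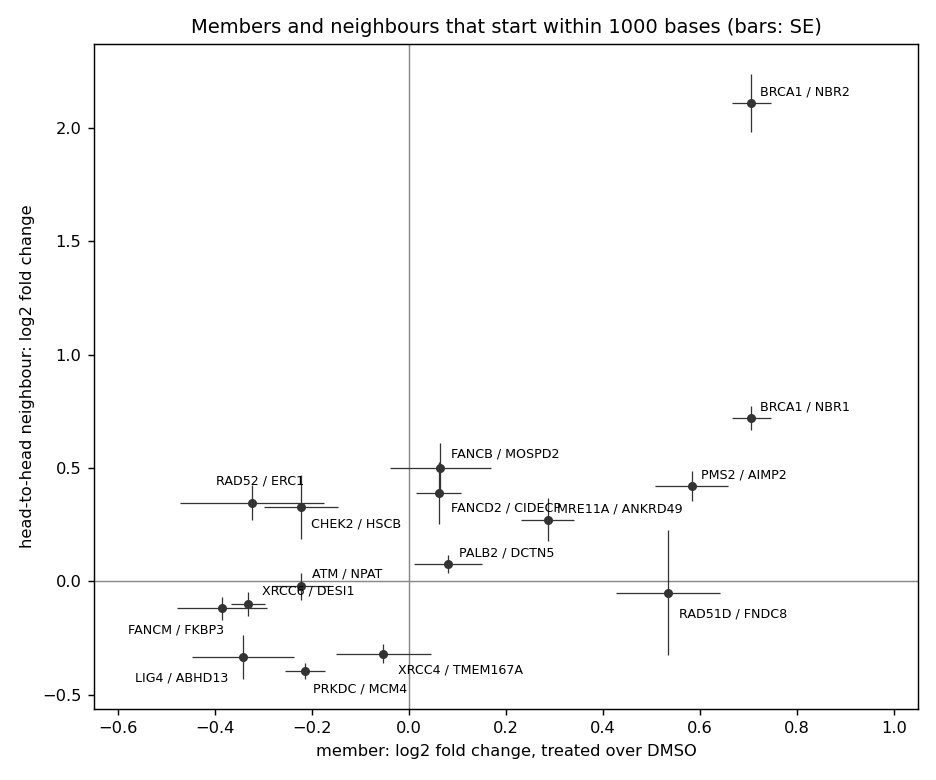
Log2 fold change, treated over DMSO, of each member (horizontal) and of its head-to-head neighbour (vertical), with SE bars, for 16 of the 17 neighbours that passed the filter. BRCA1/NBR2 stands at the top with 2.11 for the neighbour, and PMS2/AIMP2 and BRCA1/NBR1 also lie in the upper right.

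Promoter windows of 40 members were found in the RefSeq table, 62 windows in all. The cyclic AMP response element TGACGTCA, searched on both strands, was in 11.3% of these windows against 1.85% of all 35116 windows of the same length. The 7 windows belong to 4 genes, RAD51C, EXO1 and PMS2, which rose, and LIG4, which fell, and several are overlapping windows of the same gene. In the windows printed above it begins 104 bases before the PMS2 start, 54 before the EXO1 start and 1 before the RAD51C start. CCAAT was in 45.2% of member windows and 34.6% of all windows, at 21 members, of which 6 were higher, 11 lower and 4 not called. The E2F forms TTTGGCGC and TTTCCCGC were in 2 and 3 member windows (3.23% and 4.84%), against 0.652% and 1.63% of all. The composite site TGATGNAA was in 1 member window (1.61% against 3.62%), and the CHR letters TTTGAA in 5 (8.06% against 15.2%). These matches describe the letters only.

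The wider pathway was followed in 95 other genes, of which 94 passed the filter, 30 rose and 26 fell. That is 59.6% changed, below the 66.4% of all tested genes, which were 33.8% higher and 32.7% lower. Other recombination genes rose in 15 and fell in 4 of 31. Among them FAM175A, a scaffold of a BRCA1 complex, went from 45.5, 46.3 and 45.1 to 77.05, 82.5 and 79.1 CPM (log2 fold change 0.80, SE 0.06, edgeR adjusted p = 3.00e-13), and ZSWIM7, another recombination factor, rose by 0.83 from 5.14 ± 0.973 to 9.12 ± 0.984 CPM. Other end joining genes rose in 7 and fell in 2 of 15, unlike the 5 core members in direction, a difference that was not tested. MAD2L2, which rose, is counted here and also among the other Fanconi genes. DCLRE1C, the end-trimming nuclease Artemis, went from 20.5, 19.9 and 21.7 to 31.1, 30.99 and 32.3 CPM (log2 fold change 0.60, SE 0.08, edgeR adjusted p = 1.01e-07), and POLM, a gap-filling polymerase, rose by 0.97 from 4.47 ± 0.464 to 8.77 ± 0.461 CPM.

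Other signalling genes rose in 4 and fell in 8 of 22, where all tested genes gave 33.8% higher and 32.7% lower. UBE2N, the ubiquitin-conjugating enzyme that works with RNF8, fell from 236, 230.0 and 233 to 159, 137 and 145 CPM (log2 fold change -0.67, SE 0.05, edgeR adjusted p = 2.02e-13). TELO2, which helps the ATM and ATR family of kinases to fold, fell by 0.54 from 97.6 ± 7.35 to 67.3 ± 5.44 CPM. Of 16 other Fanconi genes that passed the filter 4 rose and 5 fell. The symbol STRA13, which has named more than 1 gene, fell from 127 ± 4.14 to 59.2 ± 4.81 CPM (-1.10). Other mismatch repair genes rose in 1 and fell in 7 of 11, and PCNA, which fell, is also in the S phase list below.

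Many repair genes are transcribed with the cell cycle, so its markers are given beside them. Among all tested genes 66.4% changed and 32.7% were lower. Of 16 S phase genes 93.8% changed, 12 fell and 3 rose, with a median log2 fold change of -0.37, and their summed level was 4064 to 4165 CPM in DMSO and 3289 to 3373 CPM in treated libraries. Of 15 genes of G2 and mitosis 80.0% changed, 10 fell and 2 rose, with a median of -0.16 and a summed level of 3817 to 3869 CPM in DMSO and 3360.0 to 3568 CPM after treatment. Members of several roles fell, as most genes of these lists did, and others, such as BRCA1, BRCA2 and EXO1, rose. Within the lists CCNE2 (0.44), E2F1 (0.21), CDT1 (0.17), KIF11 (0.20) and CCNB2 (0.11) also rose on the log2 scale. The part of the cell cycle in the results was not tested. In the authors' deposited table, which compares a group B with a group A that its header does not name, 11 of the 45 genes are higher and 17 lower at an adjusted p under 0.05, and 40 calls are those found here. CHEK1, CHEK2, RNF168, FANCC and ERCC1 were called here and did not pass in the authors' deposited table.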

How the data were processed

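The files deposited by the authors hold whole-number counts by gene symbol, not normalized, for 6 mRNA libraries prepared with a directional kit, per the labels' protocols. STAR, Cufflinks, DESeq2 and hg19 are named without roles, per the submitters' processing notes, and the counting program, its strand setting and its annotation were not given in the sources used here. Without a stated strand setting, overlapping genes on opposite strands cannot be told apart. Totals of unassigned reads, 13.2% to 15.3% of all counts, were left out. The authors' deposited table of their own comparison gives a fold ratio, a p-value and an adjusted p-value per gene, per the file headers.

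Counts were fitted by edgeR 4.0.16 (R 4.3.3; glmQLFit and glmQLFTest), with treatment as the only term, TMM scaling and filterByExpr at a minimum count of 10, which kept 12339 genes. Benjamini-Hochberg adjustment ran over all of them. The SE of a log2 fold change was derived from its F statistic. The script was tested on simulated data. Replicates differed beyond counting noise (chi-square per degree of freedom 2.38 to 6.22) and were kept as separate samples. Exonic lengths, overlaps and head-to-head starts came from GENCODE 29 (GRCh38) by symbol. All 45 genes are described. The 3 genes of each role with the smallest p and called genes with an absolute log2 fold change of at least 0.5 are given by library. Other pathway genes were named when called, not overlapping, changed by at least 0.5 and at 2 CPM or more on average. One neighbour is not reported here. The members, lists, ratios and motifs were chosen with earlier results of these data known. Alternatives were other scalings, DESeq2 1.42.0, other filters, a minimum fold change of 1.2, a replicate block and leaving out each library.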

Additional observations from a re-analysis of the deposited data

How the results depend on the processing

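The 33 calls among the 45 genes were recomputed under 13 alternatives, and 10 held in all of them: BRCA1, BRCA2, RAD51D, PMS2 and ERCC4 higher, and ATR, ATRIP, RAD54L, WRN and XRCC6 lower. The other 23 were lost when a minimum fold change of 1.2 was required, which left 5 members higher and 5 lower, 4765 genes changed in all, 17 of the other pathway genes, 12 of the cell cycle genes and 5 of the head-to-head neighbours. These last lists were recomputed by a choice made after seeing the data. Leaving out each library in turn gave 13 to 15 members higher, 16 to 18 lower and 7668 to 8183 genes changed. With a replicate block, 15 members were higher, 17 lower and 8050 genes changed. Same-numbered libraries did not deviate together (correlations 0.00, 0.00 and -0.07), so the shared numbers give no sign of pairing. DESeq2 called 8002 genes. None of the 33 called members changed direction under these alternatives. Of genes that were not called, RBBP8 had a log2 fold change of -0.00050 with RLE scaling, -0.011 with DESeq2 and -0.012 with no filter, and ranged from -0.036 to 0.043 with 1 library left out. With total counts scaling BLM was at 0.039 and XRCC4 at 0.038. With 1 library left out FANCB ranged from -0.0086 to 0.139 and XRCC4 from -0.170 to 0.021, each with 1 library turning the sign (DMSO replicate 3 and treated replicate 1). The cause was not tested. No partner ratio changed direction when 0.5 was added to each count or a library was left out. At this depth the member with the fewest counts, RAD52, had 127 to 179 counts per library.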
